A study of Mus musculus with 20 samples.

Results

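The genes described are 10 genes of bile acid synthesis, bile acid transport and the bile acid receptor FXR, chosen by gene symbol from the 22298 gene entries in the count tables of 20 mouse livers. They are Cyp7a1, Cyp8b1, Cyp27a1, Cyp7b1 and Cyp39a1 among the synthesis enzymes, Baat for conjugation, Nr1h4 and Nr0b2 for FXR and its target SHP, and Slc10a1 and Abcb11 for uptake and export. All 10 were found in each of the 20 libraries and passed the filter on low counts. All livers came from male mice homozygous for the db mutation of the leptin receptor (Lepr db/db), which are obese and diabetic, and each group held 5 mice. Vec mice (labelled control) received a liver-directed adeno-associated virus carrying a non-targeting shRNA at 5 weeks of age and were given vehicle. Vec+BBR mice received the same virus and benzbromarone (BBR), a urate-lowering drug, at 25 mg/kg by mouth daily for 4 weeks. shRNA mice (labelled as PPAR knockdown) received a virus with shRNAs against Pparg at the same age, with vehicle, and shRNA+BBR mice received that virus and BBR at the same dose. Tissues were taken after a fast of 6 h. The diabetic background, the viral vector and the daily gavage were common to every group, and no lean or uninfected mice are among these libraries, so the levels apply to treated db/db liver.

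Bile acids are made from cholesterol in hepatocytes. The classic pathway begins with Cyp7a1, its rate-limiting enzyme, and Cyp8b1 directs its products toward cholic acid, whereas the alternative pathway begins with the mitochondrial enzyme Cyp27a1 and continues through the oxysterol hydroxylase Cyp7b1, and Cyp39a1 acts on a further oxysterol that comes mainly from the brain. Bile acids are then conjugated by Baat, exported into bile by the pump Abcb11 (BSEP) and taken up again from portal blood by Slc10a1 (NTCP). When bile acids accumulate they activate the nuclear receptor FXR (Nr1h4), which induces Nr0b2 (SHP) and Abcb11, and SHP represses Cyp7a1 and Cyp8b1.

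Upstream sequences were held for 6 of the 10 genes in the RefSeq promoter table of build GRCm38.p6, namely Cyp8b1, Cyp27a1, Nr1h4, Nr0b2, Slc10a1 and Abcb11. The 250 bases before the start site are shown for Abcb11, Cyp27a1 and Slc10a1, those of the 6 that were called lower with BBR, and for Nr0b2, the direct FXR target. They lie at chr2:69342617-69342866 (minus strand), chr1:74713285-74713534 (plus strand), chr12:80968706-80968955 (minus strand) and chr4:133553126-133553375 (plus strand), and each is written 5′ to 3′ on the strand of its gene, with AGGTCA, the half-site bound by many nuclear receptors, and the E-box CACGTG in capitals wherever they occur on either strand.
Abcb11: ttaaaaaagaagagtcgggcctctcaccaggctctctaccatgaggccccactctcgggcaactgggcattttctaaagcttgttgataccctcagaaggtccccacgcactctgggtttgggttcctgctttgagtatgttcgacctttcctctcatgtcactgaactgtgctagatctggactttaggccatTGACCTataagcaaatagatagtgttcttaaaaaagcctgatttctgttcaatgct
Cyp27a1: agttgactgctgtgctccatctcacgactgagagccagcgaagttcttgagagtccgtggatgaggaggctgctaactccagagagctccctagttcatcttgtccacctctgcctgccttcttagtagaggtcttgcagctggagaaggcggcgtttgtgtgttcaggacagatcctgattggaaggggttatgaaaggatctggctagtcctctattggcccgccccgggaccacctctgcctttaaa
Slc10a1: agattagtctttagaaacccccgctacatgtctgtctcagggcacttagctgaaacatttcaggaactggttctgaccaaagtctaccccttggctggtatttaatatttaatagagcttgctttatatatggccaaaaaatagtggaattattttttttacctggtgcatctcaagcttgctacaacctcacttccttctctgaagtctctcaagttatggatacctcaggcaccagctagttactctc
Nr0b2: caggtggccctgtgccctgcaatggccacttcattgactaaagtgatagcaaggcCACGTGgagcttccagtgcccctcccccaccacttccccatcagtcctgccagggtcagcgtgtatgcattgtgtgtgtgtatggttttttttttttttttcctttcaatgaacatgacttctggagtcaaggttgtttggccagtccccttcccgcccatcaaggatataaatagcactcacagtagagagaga
With the base before the start site counted as -1, AGGTCA occurred on the opposite strand in Abcb11 from position -56, where it reads TGACCT in the line above, and in Nr1h4 from position -214, that is in 2 of 6 genes against 14% of 32851 promoters. CACGTG occurred in Nr0b2 from position -195, in 1 of 6 genes against 6.02% of promoters. TATAAA was found in Cyp8b1 from -31, in Nr0b2 from -28 and in Slc10a1 from -128 on the opposite strand, in 3 of 6 genes against 12.4% of promoters. None of the 6 windows held AAGGTCA (4.08% of promoters), which contains AGGTCA, the inverted repeat AGGTCANTGACCT (0.00609%), the direct repeat AGGTCANAGGTCA (0.0335%) or the forkhead sequence TGTTTAC (3.17%), searched on both strands. For Slc10a1 only the start site at the annotated gene end was counted. A second start site in the RefSeq table, with the window chr12:80968080-80968329, also held AGGTCA, and counting it would make 3 of 6 genes. The Nr1h4 window, chr10:89506659-89506908, belongs to a start site inside the annotated gene. Only exact matches were counted. In the Abcb11 window, the letters that end with the marked half-site differ from the inverted repeat at 1 base, so they were not counted. Near matches were not searched for in any window, so the absence of a related repeat is not shown. These matches are descriptions of letters in these windows.

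Libraries held between 17432904 and 25024099 assigned counts, and counting alone left little error in the 10 genes, whose lowest count in any library was 118 (Cyp7b1 in Vec+BBR replicate 3). Levels of 1 gene across livers are given as CPM, expected counts scaled by library totals corrected with TMM factors. Pparg, the gene targeted by the shRNAs, lay between 16.4 and 35.9 CPM in Vec, between 28 and 38.3 in Vec+BBR, between 3.24 and 7.31 in shRNA and between 7.19 and 21.8 in shRNA+BBR. The edgeR log2 fold change was -2.12 ± 0.28 (SE) for shRNA against Vec (adjusted p = 4.47e-05) and -1.20 ± 0.26 for shRNA+BBR against Vec+BBR (adjusted p = 0.00843). Within the shRNA virus Pparg was higher with BBR (1.28 ± 0.28, adjusted p = 0.00773), and the shRNA+BBR livers overlapped the Vec livers in Pparg. An adjusted p is the Benjamini-Hochberg value over all 12342 genes tested.

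Levels between genes were compared per transcript length, in the deposited FPKM. Slc10a1 was the most abundant of the 10 genes, with 351 ± 55.6 FPKM (mean ± SD over 20 livers), and exceeded Cyp8b1, the next, in all 20 livers. Cyp8b1 (146 ± 61.5 FPKM), Baat (116 ± 11.4 FPKM) and Cyp27a1 (113 ± 26 FPKM) followed, and neighbours among these 3 did not differ beyond their spread, since each was above the next in 12 of 20 livers. Nr1h4 had 77.1 ± 8.97 FPKM and Abcb11 50.4 ± 8.49 FPKM, and Nr1h4 was above Abcb11 in 20 of 20 livers. The gap below Abcb11 was the clearest, as the range of Abcb11 did not overlap that of Nr0b2 (20.1 ± 6.65 FPKM). Cyp7a1 (11.3 ± 7.89 FPKM), Cyp39a1 (7.07 ± 3.86 FPKM) and Cyp7b1 (6.36 ± 2.6 FPKM) were the lowest. Nr0b2 was above Cyp7a1 and Cyp7a1 above Cyp39a1 in 17 of 20 livers each, although these means differed by less than their summed SDs, and Cyp39a1 was above Cyp7b1 in 11 of 20.

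**Figure D1:**
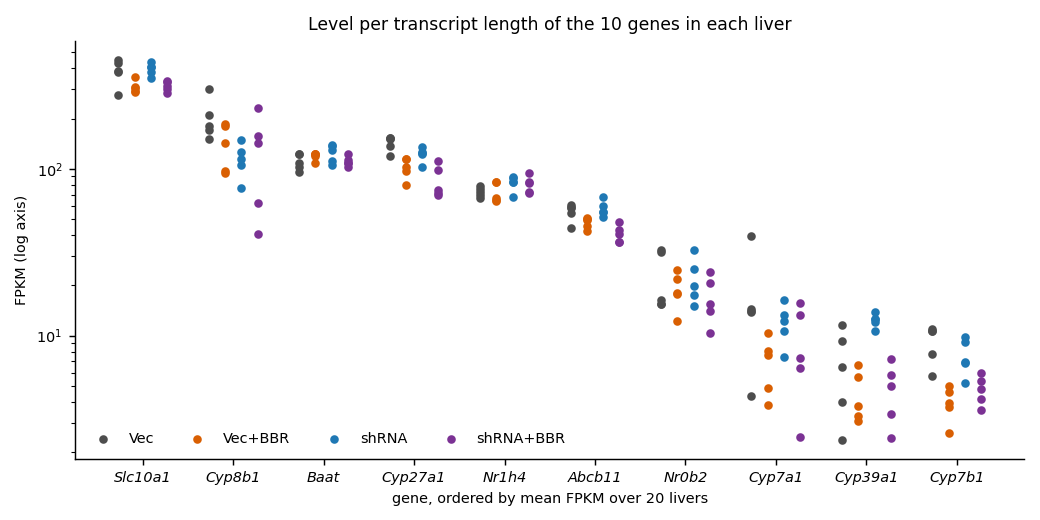
FPKM of the 10 genes (logarithmic vertical axis) in each of 20 livers, coloured by group, with genes ordered from left to right by mean FPKM. Slc10a1 at 351 FPKM and Cyp7b1 at 6.36 FPKM are the ends of the order. Cyp7a1 and Cyp8b1 spread more between livers of one group than Nr1h4 or Baat, as did Cyp39a1 in every group except shRNA.

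The genes differed in how much livers of a single group varied. In Vec the coefficient of variation of CPM was 72.1% for Cyp7a1, 51.3% for Cyp39a1, 42.8% for Nr0b2 and 35.4% for Cyp8b1, whereas it was between 11.2% and 12% for Abcb11, Nr1h4, Baat and Cyp27a1. Cyp7a1 varied 8.59-fold between the lowest and highest Vec liver and 6.23-fold between those of shRNA+BBR. The wide genes are therefore those for which 5 livers a group give the least precise comparison.

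The first question was how BBR affected these genes in livers with intact Pparg. Against Vec, 5 of 10 genes were called in Vec+BBR at an adjusted p below 0.05, where 15.5% of all genes tested were called, and all 5 were lower, where 7.88% of all genes were called lower. They were Cyp7a1, Cyp27a1, Cyp7b1, Slc10a1 and Abcb11, which cover the first steps of both synthesis routes, uptake and export. All 10 log2 fold changes were below 0, although that of Baat was above 0 (0.11) when library totals alone were used, and the median was -0.54 against -0.01 over all genes tested. The groups did not overlap in CPM for 2 genes, Cyp27a1 and Cyp7b1, where 8.93% of all genes did not overlap. Scaling matters for this comparison. TMM gave 936 genes higher and 972 lower, library totals alone gave 1831 higher and 459 lower with the median of all genes moved from -0.01 to 0.13, and under library totals 3 of the 10 genes stayed called (Cyp27a1, Cyp7b1 and Slc10a1).

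The second question was how BBR affected them with Pparg knocked down. Against shRNA, 4 of 10 genes were called in shRNA+BBR (15.6% of all genes), all 4 lower (7.28% of all genes called lower), namely Cyp27a1, Cyp7b1, Cyp39a1 and Abcb11. The median of the 10 log2 fold changes was -0.38 against 0.01 over all genes. The groups did not overlap for 3 genes, Cyp39a1, Slc10a1 and Abcb11, where 11.4% of all genes did not overlap. Cyp27a1, Cyp7b1 and Abcb11 were called lower with BBR under both viruses, in comparisons that share no livers.

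The knockdown itself called none of the 10 genes. For shRNA against Vec edgeR called 0 of 10 (13.2% of all genes), with 3 at an unadjusted p below 0.05 and 0 called by DESeq2, while limma-voom called Cyp39a1. For shRNA+BBR against Vec+BBR edgeR called 0 of 10 (8.15% of all genes), with 0 at an unadjusted p below 0.05 and 0 called by DESeq2 or limma-voom. One gene, Cyp8b1, did not overlap between shRNA and Vec, where 8.96% of all genes did not overlap, and 0 of 10 were apart between shRNA+BBR and Vec+BBR, where 8.48% were. The difference between the BBR effects under the 2 viruses, tested as an interaction, was called for 0 of 10 genes (0.146% of all genes), with 1 at an unadjusted p below 0.05 and 0 called by DESeq2 or limma-voom. So for no gene here was a different BBR effect under knockdown shown, and calls made under only 1 virus (Cyp7a1, Slc10a1, Cyp39a1) are not evidence of one.

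**Figure D2:**
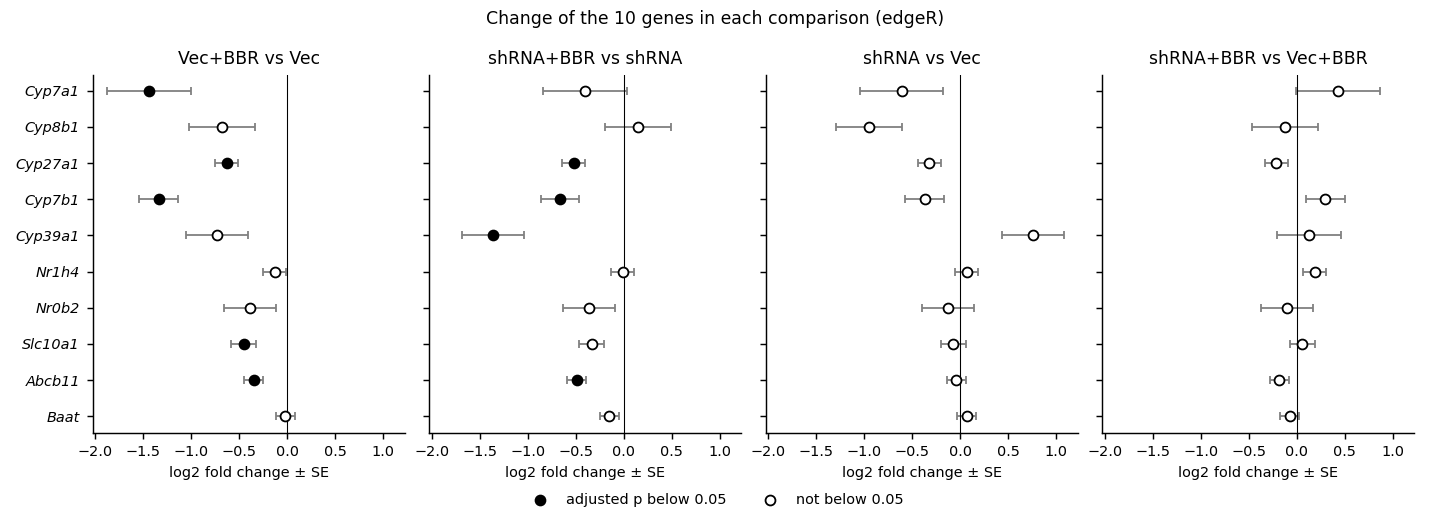
Log2 fold change ± SE from edgeR (horizontal axis) of the 10 genes in 4 comparisons of 5 against 5 livers. Filled points have an adjusted p below 0.05, and all 9 filled points, 5 in the first panel and 4 in the second, lie below 0.

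Among the enzymes of the classic pathway, Cyp7a1 (chr4:6265612-6275633, minus strand, GENCODE M21 on GRCm38) was lower with BBR in Vec mice. The 5 Vec livers had 64.5, 66.9, 19.3, 165 and 59 CPM and the 5 Vec+BBR livers had 21.1, 29.5, 15.8, 40.2 and 31.4 CPM. The groups overlapped because Vec replicate 3 was as low as the treated livers, and Vec replicate 4 was far above the rest. The log2 fold change was -1.44 ± 0.44 (adjusted p = 0.032), that is 0.368 times the Vec level. An exact permutation test of log2(CPM + 1) over all assignments of the 10 livers to groups, two-sided, gave an unadjusted p of 0.0635. The smallest possible is 0.00794. The call was also lost with limma-voom, library totals alone, FPKM or only the groups compared, and without any of Vec replicates 2 and 4 or Vec+BBR replicates 1, 2, 3 and 5, with adjusted p between 0.00527 and 0.129 over 29 alternatives. In shRNA livers Cyp7a1 was 51.3, 53.8, 44.4, 66 and 30.3 CPM, and in shRNA+BBR livers 54, 31.7, 27.3, 10.1 and 62.9 CPM. These groups overlapped over most of their range, and the log2 fold changes were -0.40 ± 0.44 for BBR under knockdown (adjusted p = 0.539), -0.61 ± 0.43 for shRNA against Vec (adjusted p = 0.373) and 1.04 ± 0.62 for the interaction (adjusted p = 0.363).

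Cyp8b1 (chr9:121914356-121916305, minus strand), which sets the share of cholic acid, was not called in any comparison. The Vec livers had 438, 678, 353, 352 and 301 CPM and the shRNA livers 246, 283, 222, 198 and 147 CPM, so every shRNA liver lay below every Vec liver. The log2 fold change was -0.95 ± 0.34 (adjusted p = 0.071) and the exact permutation p was 0.00794, the smallest possible. It was called only in the fit of the groups compared and in the fit without shRNA+BBR replicate 4, with adjusted p between 0.0192 and 0.199 over 29 alternatives. Under BBR the levels were 193, 166, 275, 330 and 356 CPM in Vec+BBR and 436, 126, 313, 78.4 and 265 CPM in shRNA+BBR, the latter spread over a 5.56-fold range. BBR gave log2 fold changes of -0.68 ± 0.34 in Vec mice (adjusted p = 0.185) and 0.15 ± 0.34 in shRNA mice (adjusted p = 0.78).

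**Figure D3:**
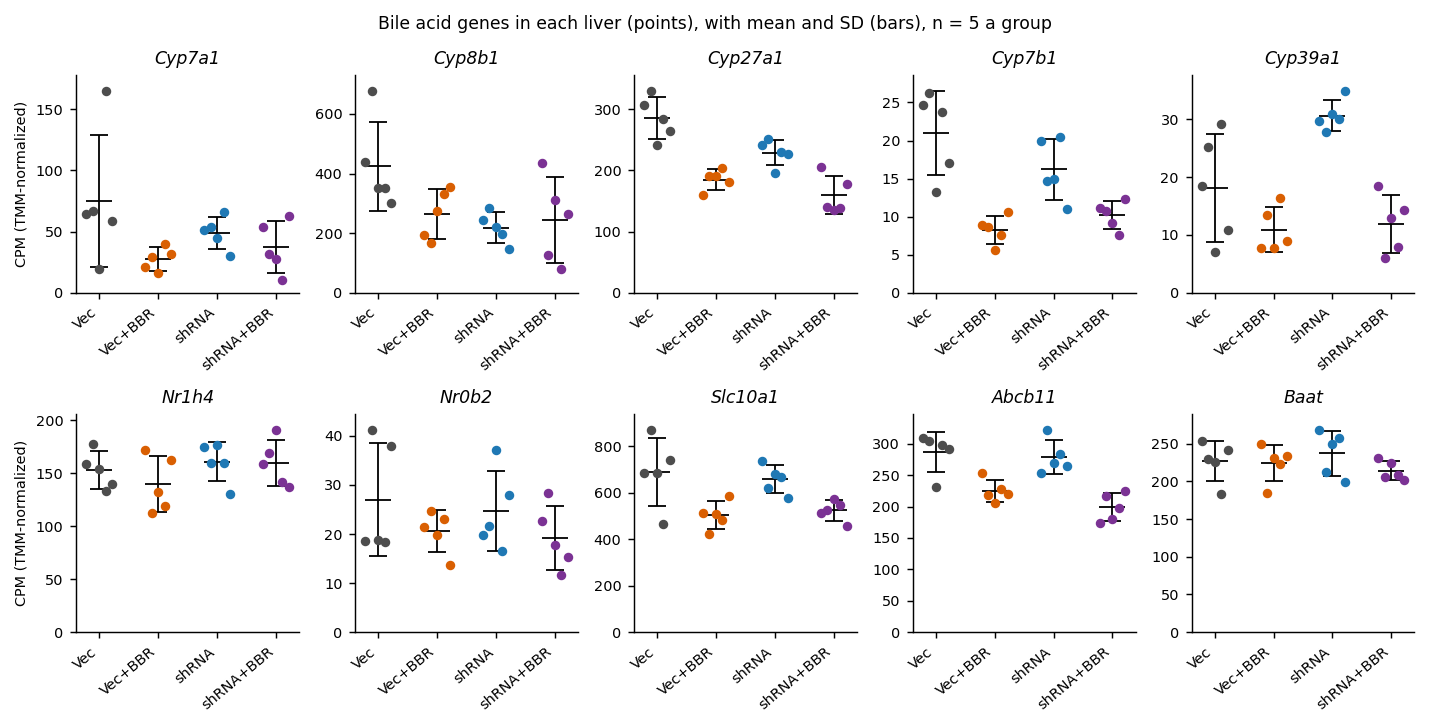
CPM of each of the 10 genes (vertical axes start at 0) in the 4 groups, with 1 point per liver and bars for mean ± SD (n = 5). Cyp27a1, Cyp7b1 and Abcb11 sit lower in both BBR groups than in the matching untreated groups, Cyp39a1 is tightly grouped at 30.6 ± 2.63 CPM in shRNA, and Nr1h4 and Baat overlap in all groups.

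In the alternative pathway both Cyp27a1 and Cyp7b1 were called lower with BBR under both viruses. Cyp27a1 (chr1:74713574-74737892, plus strand) had 306, 330, 242, 284 and 265 CPM in Vec and 159, 190, 191, 204 and 181 CPM in Vec+BBR. Every treated liver was below every Vec liver, with a log2 fold change of -0.63 ± 0.12 (adjusted p = 0.00144, 0.648 times the Vec level). In shRNA livers it had 241, 251, 195, 230 and 227 CPM, and in shRNA+BBR livers 206, 140, 135, 139 and 178 CPM. Of the shRNA+BBR livers 4 were below all shRNA livers, and the log2 fold change was -0.52 ± 0.12 (adjusted p = 0.00899). Both BBR calls for Cyp27a1 held in all 29 alternatives, with adjusted p no higher than 0.0134 in Vec and 0.0341 in shRNA mice. The knockdown gave -0.32 ± 0.12 (adjusted p = 0.0731), called without Vec replicate 3 or without shRNA+BBR replicate 1, and the interaction was 0.11 ± 0.16 (adjusted p = 0.75).

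Cyp7b1 (chr3:18071950-18243338, minus strand), the oxysterol hydroxylase that follows Cyp27a1, was the member with the lowest p in Vec mice. Its levels were 24.6, 26.2, 13.2, 23.7 and 17.1 CPM in Vec against 8.97, 8.69, 5.61, 7.58 and 10.6 CPM in Vec+BBR. The groups did not overlap, and the log2 fold change was -1.34 ± 0.20 (adjusted p = 0.000309, 0.396 times the Vec level), called in all 29 alternatives. Under knockdown the levels were 19.9, 14.7, 14.9, 20.5 and 11 CPM without and 11.2, 10.7, 9.23, 7.66 and 12.3 CPM with BBR. Here 2 treated livers exceeded the lowest shRNA liver, and the log2 fold change was -0.66 ± 0.20 (adjusted p = 0.0311). That call was lost when any of shRNA replicates 1 and 4 or shRNA+BBR replicates 2, 3 and 4 was left out (adjusted p up to 0.0853). The interaction, 0.67 ± 0.28, had an unadjusted p of 0.0268 from edgeR and an adjusted p of 0.216.

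Cyp39a1 (chr17:43667425-43751431, plus strand), which hydroxylates that brain-derived oxysterol and stands apart from the route through Cyp27a1, was the most even gene in shRNA livers and among the most uneven in Vec. The shRNA livers had 29.6, 27.8, 30.8, 30 and 34.9 CPM and the shRNA+BBR livers 18.5, 6.09, 12.9, 7.89 and 14.3 CPM. These groups lay fully apart, with a log2 fold change of -1.36 ± 0.32 (adjusted p = 0.0112, 0.389 times the shRNA level), called in all 29 alternatives. The Vec livers had 18.4, 25.2, 7.01, 29.1 and 10.9 CPM and the Vec+BBR livers 7.82, 13.5, 7.75, 16.3 and 8.94 CPM, which overlapped, with -0.73 ± 0.32 (adjusted p = 0.131). Without Vec replicate 3, the lowest Vec liver, this difference was called at -0.95 (adjusted p = 0.0274). Against Vec the shRNA livers gave 0.76 ± 0.32 (adjusted p = 0.116), with 4 of 5 above all Vec livers, and this was called with limma-voom, with FPKM and without Vec replicate 4. The spans of Cyp7b1 and Cyp39a1 each overlap a small nuclear RNA gene on the same strand in the annotation. Whether these overlap an exon was not checked, and any shared reads could not be told apart.

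FXR and SHP were not called in any comparison. Nr1h4 (chr10:89454234-89533585, minus strand) had a median of 154 CPM in Vec (133 to 178), 132 in Vec+BBR (113 to 172), 160 in shRNA (131 to 177) and 159 in shRNA+BBR (137 to 191). All 4 ranges overlapped, and the log2 fold change with BBR was -0.13 ± 0.12 in Vec mice (adjusted p = 0.521) and -0.01 ± 0.12 in shRNA mice (adjusted p = 0.964). Nr0b2 (chr4:133553376-133556536, plus strand) had 18.6, 41.2, 18.7, 18.4 and 37.9 CPM in Vec, where 2 livers stood well above the other 3. It had 21.5, 24.6, 19.9, 23.1 and 13.7 CPM in Vec+BBR, 16.5 to 37.1 CPM in shRNA and 11.6 to 28.4 CPM in shRNA+BBR. BBR gave -0.39 ± 0.27 in Vec mice (adjusted p = 0.36) and -0.36 ± 0.27 in shRNA mice (adjusted p = 0.364), which with an SE of this size leaves both a moderate fall and no difference possible.

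Of the 2 transporters among the 10 genes, Abcb11 was called lower with BBR under both viruses and Slc10a1 in Vec mice. Abcb11 (chr2:69238282-69342616, minus strand), the canalicular bile salt pump, had 310, 304, 231, 298 and 292 CPM in Vec and 253, 218, 205, 228 and 220 CPM in Vec+BBR. Of the treated livers 4 were below all Vec livers, Vec replicate 3 was well below the other Vec livers, and the log2 fold change was -0.35 ± 0.10 (adjusted p = 0.0173). In shRNA it had 254, 322, 269, 284 and 265 CPM and in shRNA+BBR 174, 217, 181, 197 and 225 CPM. These groups did not overlap, with -0.49 ± 0.10 (adjusted p = 0.00489, 0.713 times the shRNA level), called in all 29 alternatives. The call in Vec mice was lost with library totals alone and with FPKM (adjusted p up to 0.137). The span of Abcb11 overlaps an antisense gene (Gm13613) and a pseudogene (Gm13614), and whether these overlap an exon was not checked. As strand-specific counting is not stated in the sources used here, any shared reads could not be told apart.

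Slc10a1 (chr12:80953183-80968705, minus strand), which takes up conjugated bile acids from portal blood, had 685, 869, 685, 466 and 741 CPM in Vec and 514, 424, 507, 484 and 587 CPM in Vec+BBR. The groups overlapped through Vec replicate 4, and the log2 fold change was -0.45 ± 0.13 (adjusted p = 0.0184). The call was lost without Vec replicate 2 or Vec+BBR replicate 2, with FPKM and with only the groups compared (adjusted p up to 0.065). In shRNA livers it had 737, 621, 681, 668 and 578 CPM and in shRNA+BBR livers 514, 525, 573, 547 and 456 CPM. Every treated liver was below every shRNA liver, and yet the change of -0.33 ± 0.13 had an adjusted p of 0.0763, with 5 of 29 alternatives calling it. The conjugating enzyme Baat (chr4:49489422-49506557, minus strand) ranged from 183 to 268 CPM over all 20 livers, and the 4 comparisons gave log2 fold changes between -0.15 and 0.07 with an SE of 0.10, none called.

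The rest of bile acid handling was read from 5 lists with 64 genes, of which 61 were tested. Of these 61, BBR lowered 20 and raised 3 in Vec mice (median change -0.16 on the log2 scale) and lowered 20 and raised 4 in shRNA mice (median change -0.22). Over all genes tested, 15.5% were called in Vec mice, 7.88% lower, and 15.6% in shRNA mice, 7.28% lower. The knockdown lowered 14 and raised 5 with vehicle, where 13.2% of all genes were called, and lowered 5 and raised 5 with BBR, where 8.15% were. By list, BBR in Vec mice lowered 5 of 13 other synthesis genes, 4 of 16 other transporters (2 raised), 3 of 19 other regulators, 4 of 6 detoxification genes and 4 of 7 cholesterol supply genes (1 raised). In shRNA mice it lowered 3 of 13 synthesis genes and raised 4, and lowered 6 of 16 transporters, 6 of 19 regulators, 3 of 6 detoxification genes and 2 of 7 cholesterol supply genes.

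**Figure D4:**
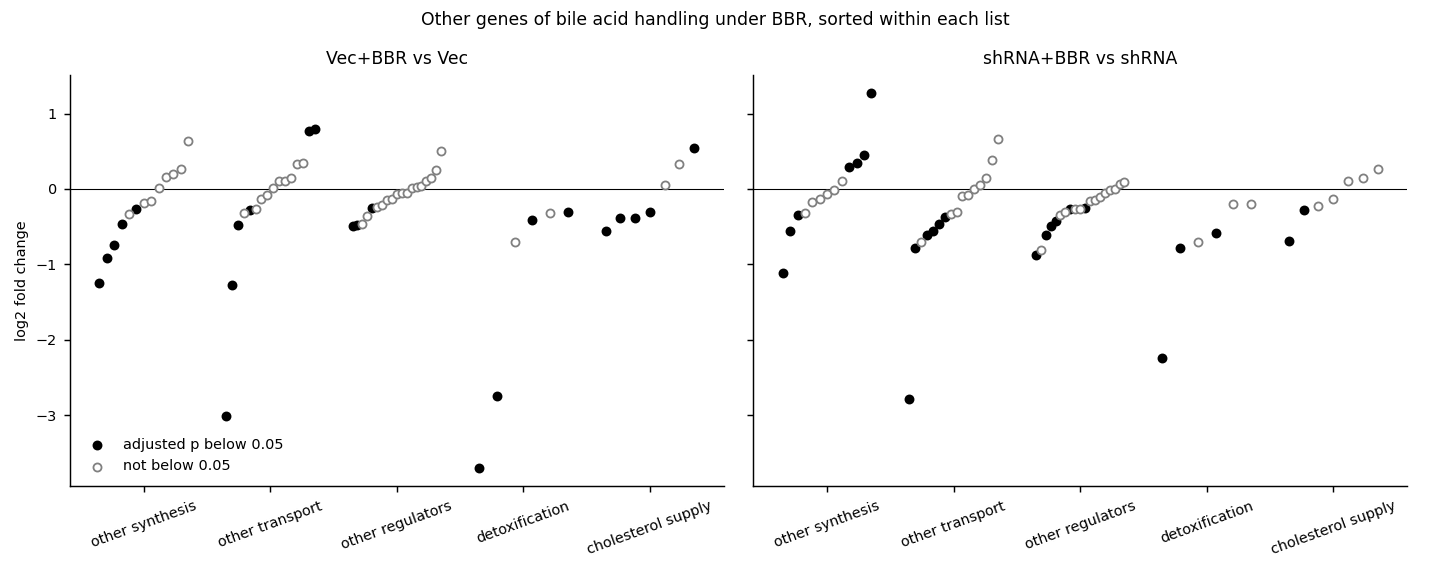
Log2 fold change (vertical axis) of the other genes of bile acid handling with BBR, in Vec mice on the left and shRNA mice on the right, sorted within each of 5 lists. Filled points have an adjusted p below 0.05, of which 20 are below and 3 above 0 on the left, and 20 below and 4 above 0 on the right.

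The lowest p among these genes in Vec mice belonged to Sult2a8, a sulfotransferase that acts on bile acids in mouse liver. Its level was 85.1 ± 23.1 CPM in Vec and 12.6 ± 4.24 CPM in Vec+BBR (SD, n = 5), with ranges of 57.1 to 110 and 8.7 to 19.6 CPM that lay far apart, and a log2 fold change of -2.75 ± 0.28 (adjusted p = 7.94e-06). Under knockdown it was 64.9 ± 11.8 CPM without and 37.9 ± 14.9 CPM with BBR. Sult2a8 was the only 1 of the 61 genes with a called interaction (1.98 ± 0.37, adjusted p = 0.0328), so its BBR effect was smaller under knockdown. Its relative Sult2a1 and the uptake carrier Slco1a1, chosen after their values were seen, had the 2 largest falls in the plot of these genes but varied widely between livers. Sult2a1 ranged from 11.4 to 210 CPM in Vec and from 0.758 to 11.1 CPM in Vec+BBR (-3.70 ± 0.84, adjusted p = 0.00567), and from 20 to 353 CPM in shRNA and 24.9 to 63.1 CPM in shRNA+BBR (-2.25 ± 0.76, adjusted p = 0.0482). Slco1a1 was low everywhere, with 2.15 ± 1.33 CPM in Vec and 0.263 ± 0.172 CPM in Vec+BBR (-3.01 ± 0.96, adjusted p = 0.0378). How reads shared by related Sult2a genes were divided is not given, which leaves the levels of Sult2a1 and Sult2a8 uncertain. Cyp2c70, which makes the muricholic acids of mice, was lower with BBR under both viruses, from 264 ± 86.9 to 111 ± 17.7 CPM in Vec mice (-1.25 ± 0.21, adjusted p = 0.000739) and from 390 ± 107 to 180 ± 25 CPM in shRNA mice (-1.11 ± 0.21, adjusted p = 0.0043).

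Next in Vec mice came Slc27a5, the ligase that activates bile acids for Baat, with -0.75 ± 0.13 (adjusted p = 0.00102, and -0.56 ± 0.13, adjusted p = 0.011, in shRNA mice), and the reductase Akr1c6 with -0.91 ± 0.16 (adjusted p = 0.00106), for which shRNA mice gave -0.32 ± 0.16 (adjusted p = 0.166). The uptake carrier Slco1a4 gave -1.27 ± 0.26 (adjusted p = 0.00283) and, in shRNA mice, -0.79 ± 0.25 (adjusted p = 0.0407). Mafg, a repressor induced by FXR, gave -0.48 ± 0.11 in Vec mice (adjusted p = 0.00567) and -0.49 ± 0.11 in shRNA mice (adjusted p = 0.00839). In shRNA mice the uptake carrier Slco2b1 (-0.37 ± 0.08, adjusted p = 0.00635), the HDL receptor Scarb1 (-0.69 ± 0.15, adjusted p = 0.00701) and the sterol exporter Abcg5 (-0.61 ± 0.13, adjusted p = 0.00848) were lower. These 3 were also called lower in Vec mice, with -0.28 ± 0.08 for Slco2b1 (adjusted p = 0.0178), -0.56 ± 0.15 for Scarb1 (adjusted p = 0.0136) and -0.48 ± 0.13 for Abcg5 (adjusted p = 0.0192). Cyp46a1, which makes the oxysterol used by Cyp39a1, was higher in shRNA mice at 3.71 ± 0.416 against 1.52 ± 0.757 CPM (1.27 ± 0.26, adjusted p = 0.00534), a low level in both groups, and gave 0.64 ± 0.25 in Vec mice (adjusted p = 0.0872).

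With knockdown and vehicle, Npc1, which moves cholesterol out of lysosomes, was lower (-0.45 ± 0.09, adjusted p = 0.00227), as were the uptake carrier Slco1b2 (-0.68 ± 0.16, adjusted p = 0.00696) and Dbp, a clock output factor known to activate Cyp7a1 (-1.34 ± 0.34, adjusted p = 0.012). Slco1a4 (1.15 ± 0.26, adjusted p = 0.00542), the transcription factor Onecut1 (1.27 ± 0.29, adjusted p = 0.00634) and the flippase Atp8b1 (0.50 ± 0.12, adjusted p = 0.0105) were higher. With knockdown and BBR, Slco1a4 (1.63 ± 0.26, adjusted p = 0.00112) and Sult2a8 (1.59 ± 0.27, adjusted p = 0.0015) were higher. The basolateral exporter Abcc3 (-0.88 ± 0.15, adjusted p = 0.00124), the sterol exporter Abcg8 (-0.80 ± 0.14, adjusted p = 0.00221), the clock repressor Nr1d1 (-1.67 ± 0.31, adjusted p = 0.00322) and Dbp (-1.35 ± 0.34, adjusted p = 0.0176) were lower. Chosen after their values were seen, Fgfr4, the receptor through which the intestinal hormone FGF15 represses Cyp7a1, was 22.4 ± 4.4 CPM in Vec and between 15.9 and 16.5 CPM on average in the other 3 groups. It was called lower with BBR in Vec mice (-0.49 ± 0.12, adjusted p = 0.00773) and with knockdown (-0.44 ± 0.12, adjusted p = 0.0145).

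Some markers of liver zones and of other cell types moved with the same comparisons, and their part in the results above was not tested. Over all 12342 genes tested, BBR called 936 higher and 972 lower (7.88%) in Vec mice, and 1032 higher and 899 lower (7.28%) in shRNA mice. Knockdown with vehicle called 652 higher and 976 lower. A list with only 1 gene called is not read as a shift of its cell type. Cyp7a1 is known as a gene of pericentral hepatocytes, and 7 of 9 pericentral markers were lower with BBR in Vec mice, their sum falling from a range of 9472 to 18057 CPM in Vec to 6339 to 8689 CPM in Vec+BBR. With knockdown 5 of 9 were lower (6407 to 8754 CPM), and with BBR under knockdown 0 of 9 were lower and 1 was higher. Cyp2e1 alone averaged 9446 CPM in Vec and weighed most in the pericentral sums. Of 7 periportal markers 4 were lower with BBR in Vec mice (6606 to 12994 against 5879 to 6461 CPM) and 1 in shRNA mice. Of 8 hepatocyte markers 3 were lower in Vec mice and 1 in shRNA mice, with summed levels of 116409 to 147121 CPM in Vec and 86913 to 121600 CPM in Vec+BBR. Alb, the defining hepatocyte gene, was 109687 ± 9260 CPM in Vec, which fits the label of liver. It made up most of the hepatocyte sum and was not called with BBR in Vec mice (-0.27 ± 0.11, adjusted p = 0.114). Of 7 stellate cell markers 3 were higher with BBR in Vec mice (151 to 282 against 301 to 335 CPM) and 4 in shRNA mice. Endothelial markers were higher for 3 of 6 with BBR in Vec mice (72.4 to 99.5 against 94 to 129 CPM) and for 1 of 6 in shRNA mice, where 2 of 6 were lower. Cholangiocyte markers summed to between 33 and 106 CPM in every liver, of which Spp1 alone averaged between 27.2 and 61.1 CPM in the 4 groups. With BBR in Vec mice 1 of 7 tested was higher, Spp1, and Cftr was at 3 counts or fewer in all libraries. Of 8 macrophage markers 1 was higher and 2 were lower with BBR in Vec mice (121 to 329 against 159 to 255 CPM). In bulk liver, fewer cells of a type and less RNA per cell cannot be told apart.

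Daily timing bears on these genes because Cyp7a1 cycles over the day. With knockdown, 2 of 7 day-phase genes, Dbp and Nr1d1, were lower with vehicle and again with BBR, and no other was called. Both were also counted above among the 61 other genes of bile acid handling. Among night-phase genes, 2 of 5 tested were higher with vehicle and 3 with BBR, with Arntl and Cry1 (chosen after their values were seen) in both. Over all 12342 genes tested, knockdown called 652 higher and 976 lower with vehicle, and 409 higher and 597 lower with BBR. BBR itself moved 1 of 7 day-phase genes in Vec mice and 2 of 7 in shRNA mice, all lower, where 7.88% and 7.28% of all genes were called lower. Of 5 night-phase genes tested, BBR lowered 1 in Vec mice, Cry1 (-0.57 ± 0.15, adjusted p = 0.0169), and raised 1 in shRNA mice, Clock, also chosen after its values were seen (0.49 ± 0.12, adjusted p = 0.0113). Male-biased genes summed to between 701 and 2782 CPM in Vec and between 613 and 1513 CPM in shRNA, with 3 of 6 tested lower in shRNA. With BBR 2 of 6, Serpina1e and Slco1a1, were lower in Vec mice (1565 to 2612 CPM in Vec+BBR). In shRNA mice 2 were higher and 1, Slco1a1, was lower (1424 to 1729 CPM in shRNA+BBR). The low-level carrier Slco1a1 was also counted among the other transporters above. Vec replicate 3 was the lowest Vec liver for Cyp7a1, Cyp7b1, Cyp39a1, Cyp27a1 and Abcb11. It also set the lower end of the Vec range for pericentral, periportal and endothelial markers, day-phase genes, and the other transporters and regulators. Vec replicate 4 set it for male-biased genes, hepatocyte, cholangiocyte and stellate markers, and the other synthesis and detoxification genes. Without Vec replicate 3, BBR called 6 of 10 genes in Vec mice instead of 5.

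Relations among the 10 genes were described over the 20 livers, whose group differences and library scaling are shared by all genes. Pearson's r of log2 CPM was 0.786 between Cyp7a1 and Cyp7b1, 0.775 between Cyp27a1 and Cyp7b1 and 0.758 between Cyp27a1 and Abcb11. Among 9795 genes with a mean count of at least 50, the most alike in this measure were Ugt2b1 for Cyp7b1 (0.939), Vars for Cyp27a1 (0.942), Psmb7 for Nr1h4 (0.895), Herpud2 for Cyp39a1 (0.890) and Abcg5 for Abcb11 (0.879). They were followed by Zbtb8os for Slc10a1 (0.866), Rap2a for Cyp7a1 (0.855), Cr1l for Baat (0.799), Poc1b for Cyp8b1 (0.766) and Osgin1 for Nr0b2 (0.690). The second in line were Smg5 for Cyp7a1 (0.851), Hacd3 for Cyp8b1 (0.764), Atp13a1 for Cyp27a1 (0.934), C8b for Cyp7b1 (0.916), Larp1b for Cyp39a1 (0.887), Fbxl6 for Nr0b2 (0.676), Nmral1 for Slc10a1 (0.824), Inf2 for Abcb11 (0.869) and Bbox1 for Baat (0.795). Nr0b2 thus had no gene as close as the nearest ones of the other 9.

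The feedback loop was then examined within groups, with group means removed, in 6 pairs over 20 livers by permutation tests with 100000 resamples. Nr0b2 and its targets showed no relation that passed, with r = 0.095 and rho = -0.075 for Cyp7a1 (permutation p = 0.753 and 0.778) and r = 0.105 and rho = 0.039 for Cyp8b1 (permutation p = 0.700 and 0.884). Nr1h4 gave r = 0.073 and rho = 0.060 with Nr0b2 (permutation p = 0.759 and 0.809) and r = 0.011 and rho = -0.020 with Abcb11 (permutation p = 0.965 and 0.939). Dbp and Cyp7a1 gave r = 0.017 and rho = -0.083 (permutation p = 0.959 and 0.761). The strongest was Cyp7a1 with Cyp8b1, with r = 0.498 and rho = 0.432 (permutation p = 0.072 and 0.105, adjusted over the 6 pairs 0.434 and 0.628), and without the 2 livers farthest from the median of Cyp7a1 r was 0.285. For the other 5 pairs the adjusted values were 0.965 for r and 0.939 for rho, and r without the 2 farthest livers was 0.106, -0.029, 0.118, -0.178 and -0.190 in the order given.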

How the data were processed

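Expected counts and FPKM of 22298 gene entries in 20 livers were deposited by the authors, 1 table per liver. Libraries were made from poly(A) RNA and sequenced on an Illumina NovaSeq. The submitters' processing notes name build mm10, and the aligner and counting program are not given in the sources used here. The expected count values were deposited unnormalized, with 91.9% to 93.3% of them exactly whole as deposited (entries at 0 included), and the FPKM values were scaled by the authors for length and library size. 76 entries without a symbol were kept under their identifiers.

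Groups were taken from the labels, and the replicate numbers named the mice and were not used to pair them. Counts were rounded and genes filtered with filterByExpr (minimum count 10, minimum total 15), leaving 12342 genes. One edgeR 4.0.16 quasi-likelihood fit of the 4 group means used TMM factors (0.873 to 1.14), with Benjamini-Hochberg adjustment at 0.05 (R 4.3.3). CPM of single genes were compared by exact permutation tests (scipy 1.17.1) with a pseudocount of 1, and their p-values are given unadjusted. Alternatives used RLE factors, library totals alone, DESeq2 1.42.0, limma 3.58.1 (voom, and log2(FPKM + 1)), other filters, only the groups compared, a replicate block and each liver left out. The members and lists were chosen with earlier results of these data known. Named genes were all 10 members, Pparg, the 6 other pathway genes with the lowest p per comparison among those called, and the 2 genes most like each member by Pearson's r over the 20 livers, of which 1 is not reported here.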

Additional observations from a re-analysis of the deposited data

Results flagged for a closer look

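Abcb11 in Vec replicate 3 was 231 CPM, while the other 4 Vec livers had between 292 and 310 CPM. Its gap to the nearest liver was 0.767 of the group's whole range, above the critical value of 0.71 of Dixon's test for 5 values. It was the only value past that limit in 40 groups of 5 (10 genes in 4 groups), where chance gives about 1 in 20.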

How the results depend on the processing

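Of the 5 genes called with BBR in Vec mice 3 were called with library totals alone, 2 with FPKM and 3 with only the groups compared, and between 3 and 6 when 1 liver was left out (3 without Vec replicate 2 or Vec+BBR replicate 2, 6 without Vec replicate 3). For shRNA against Vec 1 gene was called with limma-voom, 1 with FPKM and 1 with only the groups compared, and between 0 and 1 with 1 liver left out. Over all genes, BBR in Vec mice called 1178 with only the groups compared and 1237 to 2395 with 1 liver left out (1237 without Vec replicate 2), against 1908. The other ranges with 1 liver left out were 661 to 2527 for BBR in shRNA mice (661 without shRNA+BBR replicate 3), 1015 to 2284 for shRNA against Vec (1015 without shRNA replicate 4), 538 to 1217 for shRNA+BBR against Vec+BBR and 5 to 122 for the interaction (122 without Vec replicate 4). The interaction called 30 genes with library totals alone, 330 with DESeq2, 11 with limma-voom and 28 with FPKM, against 18. Library totals alone gave 1098 genes higher and 559 lower for shRNA against Vec, where TMM gave 652 and 976. The cause of these shifts was not tested.

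Log2 fold changes that changed sign were small and were not called. With library totals alone and with FPKM, Baat with BBR in Vec mice was 0.11 and 0.11, Slc10a1 in shRNA against Vec 0.04 and 0.06, Abcb11 there 0.06 and 0.06, and the interactions of Cyp27a1 -0.04 and -0.06, Nr1h4 -0.02 and -0.01 and Slc10a1 -0.03 and -0.04. Cyp8b1 with BBR in shRNA mice was -0.06 with limma-voom and -0.07 with FPKM, Nr1h4 there was 0.01 with 10 counts required in every library, and Nr0b2 in shRNA against Vec was 0.01 with FPKM. The Nr0b2 interaction was -0.14 with library totals alone, -0.06 with limma-voom, -0.18 with FPKM and -0.06 with the replicate block.

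With 1 liver left out, the ranges that crossed 0 were -0.09 to 0.04 for Baat with BBR in Vec mice, -0.16 to 0.38 for Cyp8b1 and -0.08 to 0.04 for Nr1h4 with BBR in shRNA mice. For shRNA against Vec they were -0.32 to 0.08 for Nr0b2, -0.18 to 0.04 for Slc10a1 and -0.00 to 0.12 for Baat. For shRNA+BBR against Vec+BBR they were -0.43 to 0.11 for Cyp8b1, -0.08 to 0.32 for Cyp39a1 and -0.28 to 0.03 for Nr0b2, and for the interaction -0.00 to 0.17 for Cyp27a1 and -0.18 to 0.24 for Nr0b2. Correlations with reversed sign were Nr1h4 with Nr0b2 (-0.065 with library totals, -0.064 with FPKM, -0.067 to 0.200 with 1 liver left out), Nr1h4 with Abcb11 (-0.290, -0.292 and -0.156 to 0.125) and Cyp7a1 with Dbp (-0.018 with FPKM, -0.139 to 0.177). They ranged from -0.135 to 0.269 for Nr0b2 with Cyp7a1 and from -0.167 to 0.248 for Nr0b2 with Cyp8b1.

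Livers with the same replicate number deviated together (r over 0.1) in 1 of 5 pairs for BBR in Vec mice, 3 of 5 in shRNA mice and 0 of 5 in both knockdown comparisons. The numbers were not taken as pairs, although for BBR in shRNA mice this check does not show them to be unrelated. With the replicate block, 5, 4, 0, 0 and 0 of the 10 genes were called, and 1747, 1819, 1495, 940 and 21 of all genes, for the 4 comparisons and the interaction. Whether the livers of a group came from separate litters or cages is not given, so p-values measure the spread between these mice.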
